A study of Mus musculus with 2 samples.

Results

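Ephrins, Slits, netrins and their receptors were examined in sorted endothelium of the normal mouse brain. The genes were taken by name, 36 in all, and a gene was represented by its probe set with the highest mean of the 2 arrays, among probe sets annotated to 1 gene symbol. By this rule 35 of the 36 were found among 18194 genes, and *Ephb2* is not analysed here. The study sorted CD31+ endothelial cells of C57BL/6 mice by Prom1, the mouse CD133, and hybridized RNA of CD31+ Prom1- and of CD31+ Prom1+ cells to Affymetrix arrays, 1 array per population. Both populations came from normal brain vasculature, with no treatment other than the sort. The labels give no age, and how many mice gave the RNA of an array is not given in the sources used here. A population has 1 array and hence no replicate error, so that no p-value is given and no difference has a replicate check. *Prom1* itself read 196 times the array median in cells labelled Prom1- and 159 times in those labelled Prom1+, so its transcript was not higher in the cells sorted for the protein, and the arrays are named by their labels.

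Ephrins are ligands held on the cell surface, by a lipid anchor in the A class and by a membrane-spanning segment in the B class. They bind Eph receptor tyrosine kinases of a touching cell, and signals pass into both cells. Slits are secreted proteins bound by Robo receptors, and netrins are secreted proteins related to laminins that bind Dcc, neogenin and the Unc5 receptors. All were first described as guides of growing axons, and in vessels they take part in sprouting and in the separation of arteries from veins, in which ephrin-B2 marks arterial and EphB4 venous endothelium.

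Members of each family were measured in RNA of the sorted CD31+ cells, and none was at least 2-fold higher in the Prom1+ array. That RNA also held transcripts of other cell types, given below, and which cells the members came from was not tested. All signals below are multiples of the median of their own array, the Prom1- array first. Signals under a floor of 1.67 times the median were raised to it, and a gene was called measured when it reached the floor on at least 1 array. Of the 35 genes 18 were measured, 14 on both arrays, 3 in the Prom1- array alone and 1 in the Prom1+ array alone, while 59.3% of all genes were measured and 51.4% were measured on both arrays. Of the 18 measured genes, 0 were at least 2-fold higher in the Prom1+ array, where 28.2% of the 10793 measured genes of the array were. One, *Efna2*, was at least 2-fold lower, where 4.77% of all measured genes were. Over 5 other scalings of the arrays the share of all measured genes that were higher ran from 5.54% to 79.4%. The 4 genes measured on 1 array had signals of at most 2.85 times the median, under the 3.35 times at which a difference from the floor reaches 2-fold, and so could not be counted either way. Among the 14 measured on both arrays, 0 were at least 2-fold higher (29.0% of all such genes) and 1 was lower (3.12%). At 1.5-fold, 6 were higher (57.4%) and 3 of the 18 were lower, 2 of them measured on both arrays (4.90%). Of the 14, 11 had a higher and 3 a lower signal in the Prom1+ array, where 8046 of all 9360 genes measured on both arrays were higher. The median log2 ratio of Prom1+ over Prom1- was 0.42 for the 14, beside 0.69 for all 9360.

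**Figure D1:**
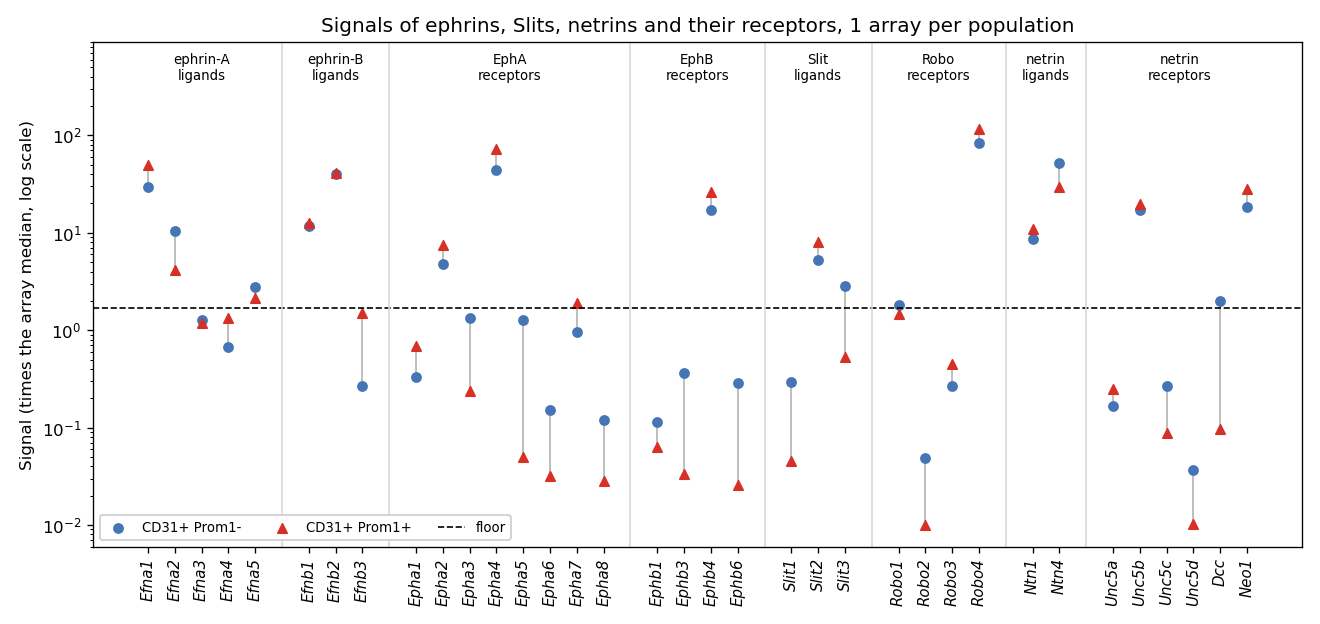
Signals of the 35 genes by role, in multiples of the array median on a log axis, with 1 point for the CD31+ Prom1- array and 1 for the CD31+ Prom1+ array. The dashed line is the floor of 1.67 times the median, below which 17 genes lie on both arrays, and there are no error bars because each population has 1 array.

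The bases before the start of 4 of these genes are shown. The genes are the Robo receptor of endothelium, the arterial and venous pair and the netrin that was lower in the Prom1+ array. The sequences are 250 bases each, 5′ to 3′ on the strand of the gene, from RefSeq on GRCm38.p6, with CpG dinucleotides in capitals.
Robo4 (chr9:37401722-37401971, plus strand): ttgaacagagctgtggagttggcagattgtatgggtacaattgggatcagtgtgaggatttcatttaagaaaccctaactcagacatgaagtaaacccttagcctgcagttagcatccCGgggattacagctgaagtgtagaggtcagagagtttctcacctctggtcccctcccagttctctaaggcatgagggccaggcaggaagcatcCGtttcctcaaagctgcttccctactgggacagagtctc
Efnb2 (chr8:8661243-8661492, minus strand): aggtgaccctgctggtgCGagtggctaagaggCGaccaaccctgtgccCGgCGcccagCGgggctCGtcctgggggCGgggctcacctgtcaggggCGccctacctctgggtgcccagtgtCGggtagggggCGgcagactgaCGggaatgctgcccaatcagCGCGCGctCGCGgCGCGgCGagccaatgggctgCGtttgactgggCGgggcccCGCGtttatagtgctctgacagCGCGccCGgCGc
Ephb4 (chr5:137349859-137350108, plus strand): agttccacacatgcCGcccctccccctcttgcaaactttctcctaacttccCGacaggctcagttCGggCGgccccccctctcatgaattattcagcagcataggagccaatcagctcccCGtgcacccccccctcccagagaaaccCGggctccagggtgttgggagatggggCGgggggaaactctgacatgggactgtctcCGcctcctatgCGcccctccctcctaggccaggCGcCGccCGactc
Ntn4 (chr10:93640799-93641048, plus strand): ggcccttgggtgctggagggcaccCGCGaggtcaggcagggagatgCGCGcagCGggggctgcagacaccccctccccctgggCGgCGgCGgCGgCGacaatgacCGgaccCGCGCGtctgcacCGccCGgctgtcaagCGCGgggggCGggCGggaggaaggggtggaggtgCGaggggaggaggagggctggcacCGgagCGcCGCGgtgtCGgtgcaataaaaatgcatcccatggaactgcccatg

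The 4 sequences differed in CpG content. That of *Robo4* held 2 CpGs, a count above that of 18.8% of 32851 such sequences, while *Ephb4* held 12, *Ntn4* 26 and *Efnb2* 27. Sequences were found for 30 of the 35 genes. The 18 sequences of genes measured on at least 1 array had a median of 24 CpGs, and the 17 of genes under the floor on both had 16, beside 6 over all 32851. The letters CNGGAA, a core bound by ETS factors, were searched on both strands, in which *Robo4*, *Efnb2* and *Ephb4* each had 1 match and *Ntn4* had 0. They were in 66.7% of the sequences of measured genes, in 29.4% of those of genes under the floor and in 54.2% of all. The GC box GGGCGG, which can share bases with them where both adjoin, was in 83.3%, 58.8% and 32.7%. It was absent from the *Robo4* sequence and had 3 matches in *Efnb2* and 4 each in *Ephb4* and *Ntn4*. Several of these sequences belong to the same gene, and a match is no evidence of binding.

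Among the ephrin-A ligands *Efna1* and *Efna2* went opposite ways. *Efna1*, a ligand of EphA2 that endothelium makes, read 29.4 in Prom1- cells and 49.95 in Prom1+ cells, 1.70-fold higher. Its second probe set had 11.02 and 24.3 times and was 2.21-fold higher, past the 2-fold line that the brighter one did not reach. *Efna2* read 10.5 in Prom1- cells and 4.12 in Prom1+ cells, 2.55-fold lower. This was the one called difference among the genes, and it rests on 1 probe set, because the other of *Efna2* had 0.0631 and 0.260 times and was under the floor on both arrays. *Efna5* lay close to the floor, at 2.81 and 2.12 times. *Efna3* and *Efna4* were under it on both arrays, at 0.678 to 1.34 times.

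The ephrin-B ligands were near equal on the 2 arrays by their brightest probe sets. The arterial ligand *Efnb2* read 39.8 in Prom1- cells and 41.5 in Prom1+ cells, 1.04-fold higher. *Efnb1* had 11.7 and 12.5 times, 1.07-fold higher. The second probe set of *Efnb2* had 18.9 and 30.7 times and was 1.62-fold higher, and the other 2 of *Efnb1* were 1.59-fold and 1.64-fold higher. No probe set of either reached 2-fold. *Efnb3* was below the floor in both populations (0.266 and 1.496 times).

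Of the 12 Eph receptors analysed, 3 were measured on both arrays and each was higher in the Prom1+ array by less than 2-fold. *Epha4*, which binds ephrins of both classes, read 44.2 in Prom1- cells and 73.1 in Prom1+ cells, 1.66-fold higher. *Epha2*, the receptor of ephrin-A1, had 4.83 and 7.56 times, 1.57-fold higher. The venous receptor *Ephb4* had 16.9 and 26.1 times, 1.54-fold higher. *Epha4* was also the gene with most measured probe sets, and all 5 pointed the same way. A probe set with 11.4 and 27.0 times was 2.37-fold higher, another with 2.44 and 6.69 times was 2.74-fold higher, and one more with 11.2 and 20.5 times was 1.83-fold higher. The dimmest had 0.0321 times, under the floor, and 3.06 times, a difference of at least 1.83-fold. *Epha7* was measured in the Prom1+ array alone, at 1.91 times against 0.950 times, close to the floor. *Epha1*, *Epha3*, *Epha5*, *Epha6*, *Epha8*, *Ephb1*, *Ephb3* and *Ephb6* were under the floor on both arrays, at most at 1.34 times, so that endothelial transcripts of these receptors were not detectable above the floor.

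The arterial ligand and the venous receptor of this system were compared by their ratios. The log2 ratio of *Ephb4* was 0.56 above that of *Efnb2*. With the second probe set of *Efnb2* in its place, *Ephb4* was 0.08 lower (-0.08), so the order depended on the probe set. Probe sets of 1 gene had an SD of 0.54 in their log2 ratios on these arrays, over 3930 genes, which makes 0.76 for a difference of 2 probe sets and says nothing of the spread between animals. Of 10 other arterial genes measured, 2 were at least 2-fold higher and 1 was lower, where 28.2% and 4.77% of all measured genes were, with a median log2 ratio of -0.02. The higher ones were *Vegfc*, 2.51-fold, and *Dll4*, 2.12-fold, and the lower one was *Hey2*, 3.64-fold. In all, 5 of the 10 had a higher and 5 a lower signal, with *Gja4* 1.70-fold lower. *Nrp1*, a coreceptor of VEGF, had 151 and 133 times the median, and *Sox17*, a transcription factor of arteries, had 138 and 134 times. *Gja5*, the connexin of arterial endothelium, stayed below the floor throughout, at 0.269 and 0.646 times. Of 8 other venous genes, 4 were at least 2-fold higher and 0 were lower, beside the same 28.2% and 4.77%, with a median of 0.84. The 4 were *Slc38a5*, 2.66-fold, *Nrp2*, 2.13-fold, *Aplnr*, 2.10-fold, and *Ackr1*, at least 3.20-fold. In all, 6 of the 8 had a higher and 2 a lower signal, the lower ones being *Nr2f2*, 1.84-fold, and *Tmsb10*. *Vwf*, the von Willebrand factor, had 126 and 159 times, and *Tmsb10*, an actin-binding protein, had 357 and 231 times. These medians moved with the scaling, that of the arterial list from -0.56 to 1.00 and that of the venous list from 0.29 to 1.86. The counts moved as well. After loess or quantile normalization 0 arterial genes were higher and 2 lower, and 2 venous genes were higher and 1 lower. With the trimmed mean the counts were 0 and 2 for the arterial and 1 and 2 for the venous list, and with the hybridization controls set equal they were 5 and 0, and 6 and 0.

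Among the Slits, *Slit2* read 5.23 in Prom1- cells and 8.13 in Prom1+ cells, 1.55-fold higher. A second probe set of *Slit2* pointed the other way, with 2.55 in Prom1- cells against 0.383, below the floor, in Prom1+ cells. *Slit3* was measured in the Prom1- array alone, at 2.85 times against 0.533 times, a fall of at least 1.70-fold. *Slit1* was below the floor in both populations (0.293 and 0.0453 times). The 2 falls started from signals under the 3.35 times at which a difference from the floor reaches 2-fold. The 1.55-fold rise of *Slit2* was below the median of probe sets of like signal, 1.76-fold, at percentile 41.0. The Slits thus showed no common direction in the deposited scaling, and values so close to the floor do not settle it.

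*Robo4* stood at 83.3 in Prom1- cells and 116 in Prom1+ cells, 1.40-fold higher. This Robo receptor is known for its restriction to endothelium, and it has 1 probe set on the array. Its signal lay where few probe sets differ by 2-fold, since among 1000 probe sets of like mean signal 0.3% were at least 2-fold higher and 1.2% lower. *Robo1*, a Slit receptor of neurons and other cells, had 1.80 and 1.46 times, the first just above and the second just under the floor. *Robo2* and *Robo3* were under the floor on both arrays, at 0.01 to 0.452 times.

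The netrins differed in direction in the deposited scaling. *Ntn4*, a netrin of basement membranes that endothelium makes, read 52.0 in Prom1- cells and 29.5 in Prom1+ cells, 1.76-fold lower. Its second probe set had 5.05 and 3.59 times and was 1.41-fold lower. Both probe sets were lower in the Prom1+ array, and neither reached 2-fold. *Ntn1*, the netrin that attracts commissural axons, had 8.63 and 11 times, 1.27-fold higher.

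Netrin receptors were represented by *Unc5b* and *Neo1*. *Unc5b*, a receptor of netrin 1 and of Robo4 on endothelium, read 17.1 in Prom1- cells and 20.0 in Prom1+ cells, 1.17-fold higher. Its dimmer probe set had 3.07 and 2.08 times and was 1.47-fold lower. *Neo1*, which encodes neogenin, had 18.3 and 28.3 times, 1.54-fold higher, and a second probe set had 12.5 and 18.7 times, a log2 ratio of 0.58. A further probe set of *Neo1* read 11.7 in Prom1- cells against 0.743, below the floor, in Prom1+ cells, a difference of at least 6.99-fold. The probe sets of *Neo1* therefore disagreed in direction, and whether they read the same transcripts was not tested. *Dcc* was measured in the Prom1- array alone, at 1.99 times against 0.0974 times. *Unc5a*, *Unc5c* and *Unc5d* were under the floor on both arrays, at most at 0.265 times.

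Ligands and receptors of these families had different medians. The 8 ligands measured on both arrays had a median log2 ratio of 0.08, from -1.35 to 0.76, with 5 above 0 and 3 below. The 6 receptors had a median of 0.62, from 0.22 to 0.73, and all 6 were above 0. So were 8046 of all 9360 genes measured on both arrays, whose median was 0.69, and the receptors were thus near the array as a whole. The ranges overlapped. Single ratios in both classes depended on the choice of probe set. With all probe sets of a gene averaged, the receptors *Neo1* and *Unc5b* had log2 ratios of -1.33 and -0.17. The ligands *Efnb1* and *Efnb2* had 0.49 and 0.44. The receptor *Epha4* then had 2.17 and the ligand *Ntn4* had -0.66. This averaging took in probe sets under the floor. The ligands *Efna2*, *Efna5*, *Slit2* and *Ntn1* had no value there, and the medians were not compared under it. Of the 5 other scalings tried, 3 shift all ratios by 1 constant and cannot change the gap between the medians, and under the other 2, loess and quantile normalization, the receptor median was still the higher, though both medians lay below 0. After loess, 2 receptors and 1 ligand were above 0, with medians of -0.20 and -0.64. Quantile normalization left the same number above 0, with medians of -0.07 and -0.61. With both arrays scaled to the same trimmed mean the medians were 0.08 and -0.47.

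All ratios drifted with signal between the arrays, and those of the genes are therefore set beside those of probe sets of like signal. Beside the 14 genes, the median log2 ratio of the 1000 nearest probe sets ran from 0.20 to 0.93. Of the 14, 11 lay below this median and 3 above it. The 3 above were *Robo4* at percentile 85.1 of its 1000 neighbors, *Epha4* at 75.7 and *Efna1* at 58.5. *Ntn4* lay at percentile 1.2, *Efna2* at 4.5, *Efnb2* at 7.3, *Unc5b* at 12.2 and *Efnb1* at 12.4. By these brightest probe sets the genes were low in their neighborhoods, although 3 of the 5 had a higher signal in the Prom1+ array. Other probe sets of *Efnb2*, at percentile 39.4, and of *Efnb1*, at 36.4 and 48.3, lay nearer the middle. The dimmer one of *Unc5b* lay at 14.8. *Epha2* and *Slit2* lay at 41.1 and 41.0, *Neo1* and *Ephb4* at 31.3 and 31.2, *Ntn1* at 20.0 and *Efna5* at 19.4. The percentiles describe this pair of arrays and are no test.

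**Figure D2:**
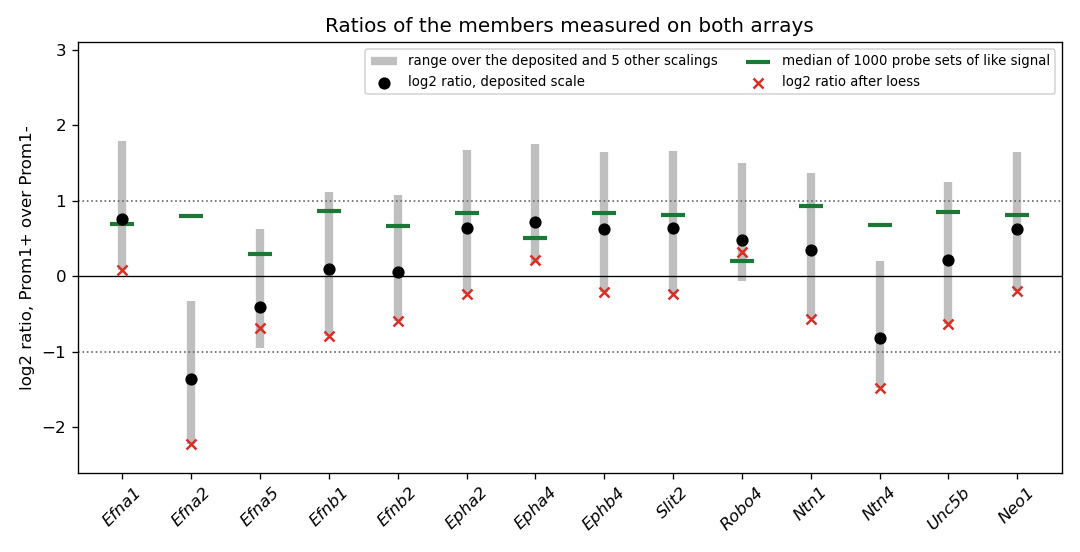
Log2 ratio of Prom1+ over Prom1- for the 14 genes measured on both arrays (black), with the median of 1000 probe sets of like signal (green), the ratio after loess (red) and the range over the deposited and 5 other scalings (grey). Dotted lines mark 2-fold, and the ratios of *Efna1* and *Epha4* stay above 0 and that of *Efna2* below 0 over the whole range, while the other 11 ranges include 0.

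After loess correction of this shift the log2 ratio was -2.22 for *Efna2* and -1.48 for *Ntn4*, and no other gene measured on both arrays passed 2-fold. *Robo4* then had 0.32, *Epha4* 0.22 and *Efna1* 0.09, the only 3 of the 14 above 0. The second probe set of *Ntn4* was also low beside its neighbors, at percentile 10.3. For *Efna2* there is no second measured probe set.

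Probe sets of the same gene gave different sizes. At least 2 probe sets on both arrays were measured for 7 of the genes, and in 5 of them the dimmest had the higher ratio of Prom1+ over Prom1-. Among all 3930 such genes this was so in 56.3%. The median gap between the dimmest and the brightest was 0.38 in log2 for the 7 genes and 0.10 for all. Because the brightest probe set stands for the gene, *Efna1* and *Epha4* are counted under 2-fold, although 1 probe set of *Efna1* and 2 of *Epha4* measured on both arrays exceeded it. In all, 75 probe sets were annotated to the 35 genes, 31 were measured and 24 of these on both arrays.

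**Figure D3:**
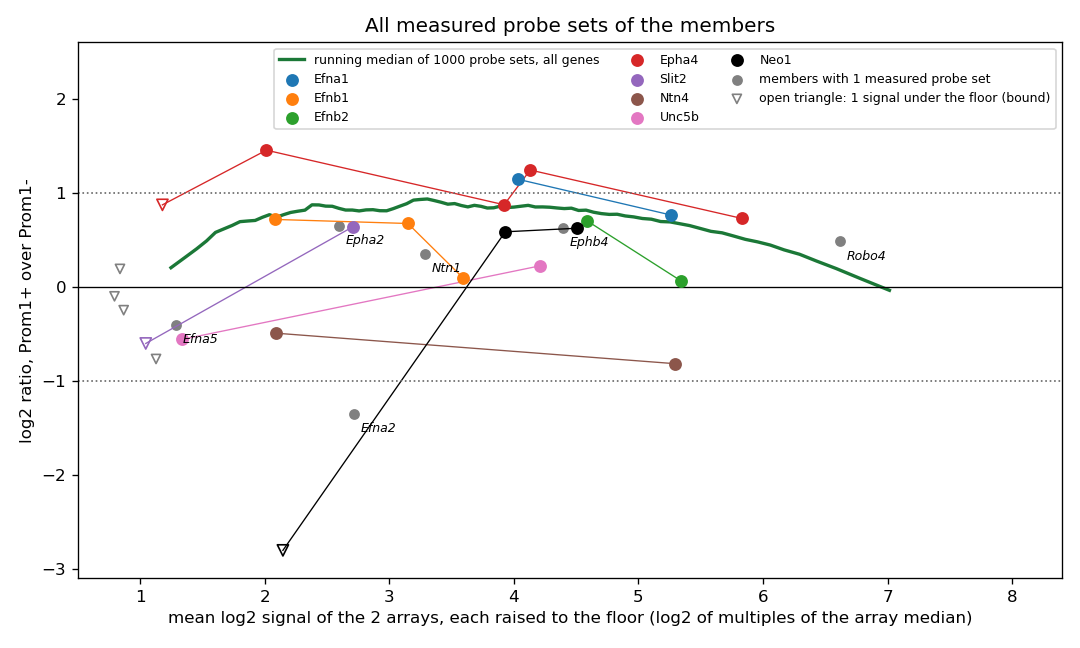
Log2 ratio of Prom1+ over Prom1- against the mean log2 signal for the 31 measured probe sets, with lines joining probe sets of 1 gene, and open triangles for those with 1 signal under the floor, whose ratio is a bound. The green line gives the running median over 1000 probe sets of all genes and dotted lines mark 2-fold. *Epha4* and *Efna1* lie on or above it, both probe sets of *Ntn4* lie below it, and the probe sets of *Neo1*, *Slit2* and *Unc5b* lie on both sides of 0.

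Genes that carry the signals of these receptors were examined by lists. Of 58 genes named in 6 lists 56 were found and 40 were measured, 9 at least 2-fold higher and 2 2-fold lower or more in Prom1+ cells. Over the whole array 28.2% of measured genes were higher and 4.77% lower. Their median log2 ratio was 0.58, beside 0.66 for all measured genes. With the scaling the median ran from 0.00 to 1.64, and the count of genes higher ran from 1 after loess or quantile normalization to 33 with the hybridization controls set equal.

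Among further family members, *Epha10*, *Ntn3*, *Ntn5* and *Ntng1* were under the floor on both arrays, and *Ntng2* was measured in the Prom1- array alone, at 2.04 times against 0.894 times. Other ligands and coreceptors numbered 5 measured of 10, with 1 higher and 1 lower. *Flrt2*, a membrane ligand of Unc5 receptors, read 26.3 in Prom1- cells and 58.0 in Prom1+ cells, 2.21-fold higher. *Dag1*, the dystroglycan that binds Slits, had 52.8 and 60.5 times, 1.15-fold higher. *Gpc1*, a heparan sulfate proteoglycan, read 3.39 and then 1.13, below the floor, at least 2.03-fold lower. The one gene at each end of this list was thus a ligand and a coreceptor.

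Of 13 genes of Eph receptor signaling 9 were measured, each with a higher signal in the Prom1+ array, and 4 passed 2-fold. Among all measured genes 28.2% were at least 2-fold higher. The guanine nucleotide exchange factor *Vav2* had 7.43 and 18.6 times the median, 2.51-fold higher. The Eph adaptor *Anks1* had 7.90 and 21.5 times, 2.72-fold higher. The phosphatase *Acp1* had 9.43 and 19.3 times, 2.05-fold higher, and the kinase *Src* had 2.12 and 4.32 times, 2.04-fold higher. The list held 9 of 9 above 0 where 8046 of the 9360 genes measured on both arrays were. *Arhgef15*, an exchange factor of vessels, had 43.2 and 72.2 times, and the adaptor *Crk* had 45.3 and 65.8 times, both under 2-fold.

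Of 10 genes of ephrin cleavage and reverse signaling, by which the ephrin-bearing cell responds, 8 were measured, 2 higher and 1 lower. The shares among all measured genes were 28.2% and 4.77%. *Rgs3*, whose PDZ form binds ephrin-B, read 9.66 in Prom1- cells and 29.4 in Prom1+ cells, 3.04-fold higher. The adaptor *Nck1* had 14.4 and 29.7 times, 2.06-fold higher. The scaffold *Grip2* read 5.79 and then 1.63, below the floor, at least 3.46-fold lower. *Sdcbp*, which encodes syntenin, had 90.1 and 117 times, and the protease *Adam10* had 89.9 and 101 times, with neither at 2-fold.

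Robo signaling had 10 measured genes of 11, with 2 higher and 0 lower, beside 28.2% and 4.77% of all measured genes. The actin regulator *Evl* read 6.10 in Prom1- cells and 25.2 in Prom1+ cells, 4.14-fold higher, the largest ratio of the 6 lists. *Srgap1*, a GTPase-activating protein of the Slit and Robo pathway, had 5.99 and 15.1 times, 2.51-fold higher. Its relative *Srgap2* had 72.4 and 106 times, 1.46-fold higher, and *Vasp*, a relative of *Evl*, had 92.4 and 81.5 times, 1.13-fold lower. The 7 measured genes of netrin receptor signaling all differed by less than 2-fold, with the GTPases *Cdc42* at 148 and 124 times and *Rac1* at 133 and 130 times.

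**Figure D4:**
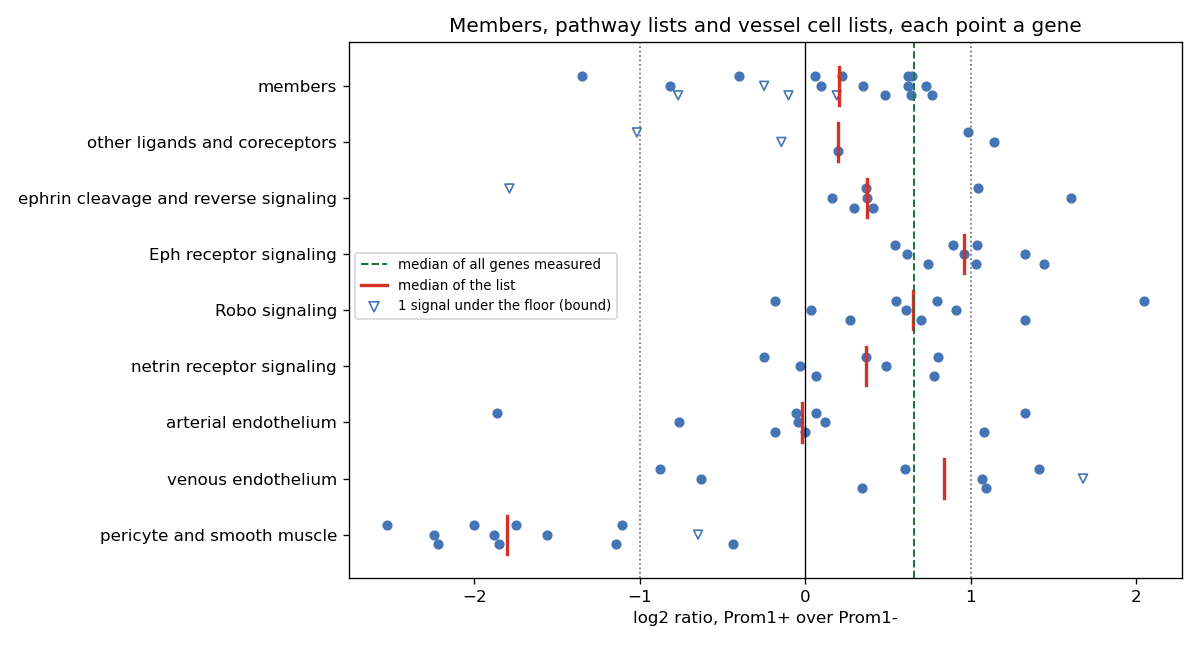
Log2 ratio of Prom1+ over Prom1- for each measured gene of the ephrin, Slit and netrin families, of 5 pathway lists and of 3 lists of vessel cells, with open triangles for bounds. Red bars are list medians, the green dashed line is the median of all measured genes at 0.66, and dotted lines mark 2-fold. The pericyte and smooth muscle genes all lie below 0, and the 9 genes of Eph receptor signaling all lie above 0.

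Transcripts of other cells moved between the same arrays. *Pecam1*, which encodes CD31, had 48.2 and 69.2 times the median, and all 18 pan-endothelial genes listed were measured on both arrays. Of the 18, 8 had a higher and 10 a lower signal in the Prom1+ array. Their median log2 ratio was -0.10, beside 0.66 for all measured genes. *Erg* alone passed 2-fold, at 15.7 and 31.5 times, 2.01-fold higher. The brightest of the 18, the tight junction gene *Cldn5* and the efflux pump gene *Abcb1a*, had 326 and 219 times and 270.3 and 223 times. Of 12 pericyte and smooth muscle genes, all measured, 10 were 2-fold lower or more in Prom1+ cells. Their summed signal was 1290.5 in Prom1- cells and 395 in Prom1+ cells, with *Acta2* at 295 and 81.6 times and *Myl9* at 263 and 78.2 times. Of 10 microglial genes 7 were at least 2-fold lower, with a summed signal of 241 and 105 times, and *Itgam* was under the floor on both arrays. *C1qb* had 78.7 and 31.8 times, and *Csf1r* had 71.5 and 33.6 times. Fibroblast and meningeal genes fell by at least 2-fold in 5 of 10 cases, with a summed signal of 475 and 135 times, *Ptgds* at 305 and 40.3 times and *Apod* at 109 and 71.4 times, and *Lum* was under the floor on both arrays. *Efna2*, *Ntn4*, *Slit3* and the lower probe set of *Neo1* moved with these lists, and the part of other cells in their values was not tested. In sorted cells measured in bulk, fewer cells of a type and less RNA per cell cannot be told apart.

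Of 10 neuronal genes, which carry many of these receptors in the brain, 5 were under the floor on both arrays, among them *Tubb3* at 0.819 and 0.0879 times. Of the other 5, 4 were measured in the Prom1- array alone, and the summed signal of the list was 72.0 and 82.8 times, most of it from *Stmn2*, a microtubule regulator, at 45.1 and 79.5 times. *Syt1*, a calcium sensor of synaptic vesicles, read 10.2 and then 0.0152, below the floor, at least 6.09-fold lower. *Dcc*, the netrin receptor of growing axons, was measured in the Prom1- array alone as well. Of 10 astrocyte genes 4 were under the floor on both arrays, among them *Gfap* at 0.483 and 0.0171 times. In this list 0 were at least 2-fold higher and 1 was lower, *S100b*, at 15.9 and 3.11 times, 5.11-fold lower. The summed signal of the list was 112 and 113 times, most of it from *Gja1*. *Gja1*, a connexin, had 67.0 and 84.5 times, and the glutamate transporter *Slc1a3* had 18.5 and 17.7 times. Of 9 oligodendrocyte genes 1 was at least 2-fold higher and 2 were lower, with a summed signal of 443 and 218 times. The myelin genes *Mbp* and *Mobp* had 271 and 119 times and 153 and 56.9 times. The gene counted as higher was *Cnp*, at 12.3 and 35.0 times, 2.84-fold higher. *Mag*, *Olig2* and *Sox10* were below the floor in both populations. Of 7 ependymal genes 1 was higher and 1 lower, with a summed signal of 29.1 and 18.1 times. *Rarres2*, which encodes chemerin, had 24.2 and 11.9 times, *Dnah11*, a dynein of cilia, had 1.03 and 3.61 times, and *Foxj1* was under the floor on both arrays.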

How the data were processed

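RNA of CD31+ Prom1- and CD31+ Prom1+ cells was amplified and labeled with biotin and hybridized to Affymetrix whole-genome mouse arrays. Scaling by the authors was to a target of 500, followed by normalization in GeneSpring, and MAS5 is named without a version in the processing notes. What was deposited is a log2 value of each signal relative to its array's median, inferred from the median of 0 in both columns. Detection calls were not used here.

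The log2 values were converted to multiples of that median. A floor, 100 in target units, became 1.67 times the median by way of the average 2% trimmed mean, and differences were counted from 2-fold, with no test. Of 45101 probe sets 42.9% and 44.6% reached the floor in the Prom1- and Prom1+ arrays. The 15 Bacillus control probe sets had at most 0.234 times the median. The number of arrays limits the precision. Of 35890 annotated probe sets 34958 have 1 symbol, 932 have several and 9211 of the array are not listed. Symbols were updated through GRCm38.p6 for 34754. The genes and lists were chosen with earlier results of these data known. All genes of the families are named, with from each other list the 2 brightest, those past 2-fold in the pathway lists, and a defining marker under the floor. Genes past 2-fold are also named in the arterial, venous, pan-endothelial, astrocyte and oligodendrocyte lists, with *Gja4* and *Nr2f2* besides. Alternatives were floors of 50 and 200 and none, folds of 1.5 and 3, 5 scalings and 2 other rules for the probe set. Counting was tested on simulated data. Python 3.11.15, numpy 2.4.6, pandas 2.3.3, statsmodels 0.14.6 (loess, span 0.2) and matplotlib 3.10.9 were used.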

Additional observations from a re-analysis of the deposited data

How the results depend on the processing

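No paired analysis was possible because each population has 1 array. The count of genes at least 2-fold higher, 0 as reported, was 1 with a floor of 50 or no floor (*Epha7*), 1 when all probe sets of a gene were averaged (*Epha4*), 6 at 1.5-fold and 11 with the hybridization controls set equal, where 79.4% of all measured genes were higher. It stayed at 0 with a floor of 200, 3-fold, without probe sets named _x_at or _s_at, and with the other 4 scalings. Of all measured genes, only 5.54% were higher after loess, 6.38% after quantile normalization and 8.10% with the trimmed mean. Beside those shares a count of 0 among so few genes says little. The count of genes lower, 1 as reported, was 3 with a floor of 50 or no floor (*Efna2*, *Slit3* and *Dcc*), 3 with the trimmed mean, quantile normalization or 1.5-fold (*Efna2*, *Slit3* and *Ntn4*), 2 with loess, and 0 at 3-fold or with the hybridization controls set equal. With that averaging it was 1, *Neo1*, in place of *Efna2*, which was under the floor there. Of all measured genes, 7.99% were lower with the trimmed mean, 7.79% after quantile normalization and 7.87% after loess. The median log2 ratio over all 18 genes measured on at least 1 array, with bounds included, was 0.21. It was 1.12 with the hybridization controls set equal and from -0.32 to 0.48 otherwise. The trimmed mean removed a log2 shift of 0.54 between the arrays, which lowered the ratios. Setting the hybridization controls equal removed a shift of -1.02, which raised them. Of the 14 genes measured on both arrays 3 kept their sign over all scalings. Of 166 values of single genes under an alternative, 108 moved by less than 0.54, the SD among probe sets sharing a gene, and 58 by more. Many of the 108 could not move. A floor leaves a gene above it on both arrays unchanged, and the probe set rules do so for a gene with 1 probe set. The pooled count therefore does not show how the ratios depend on the scaling. *Efna2*, the only gene called at 2-fold, did not change sign where it had a value.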
